A study of Mus musculus with 6 samples.

Results

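The genes described here are the metal-handling genes MT2A, MT1X and MT1E (metallothioneins), ATOX1 (a copper chaperone) and SOD1 (the copper- and zinc-dependent superoxide dismutase). They were taken by gene symbol from 9 names, MT2A, ATOX1, MT1X, MT1E, MT1F, MT1G, SOD1, FTL and FTH1, of which 5 had spots on the array and 4 (MT1F, MT1G, FTL and FTH1) had none under those symbols. The 5 genes had 6 probes in 12 spots, out of 1521 named genes on the array. The tested cells were MyoD(-)cl.A8, 1 clone of the mouse C3H myoblast line C2C12 that was transfected with the mouse MyoD transcript in antisense orientation in the vector pcDNA 3.0 and selected with G-418. They were compared with C2C12 control cells at 1, 3 and 6 days of differentiation, started in all cells by low horse serum. The sources used here do not say whether control cells carried an empty vector or were selected. Each day had 2 two-colour arrays, A with the clone in Cy5 and B with the clone in Cy3.

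Metallothioneins are small cysteine-rich proteins that bind zinc and copper, and their genes are induced by metals through the factor MTF1, by glucocorticoids and by oxidative stress. ATOX1 carries copper to the ATPases of the secretory pathway, and SOD1 is a main cytosolic user of copper. Differentiating muscle needs copper for cytochrome c oxidase as its mitochondria multiply, and MyoD drives muscle genes by binding E-boxes in DNA.

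The array was built for human genes, so the names are those of human probes while the RNA was mouse RNA. RefSeq lists 4 mouse metallothionein genes, Mt1 to Mt4, and none called Mt1x or Mt1e. The metallothioneins are close copies of each other, and which mouse transcript each human probe bound was not tested. Values are the deposited scores, centred on each array's median, and their scale is not stated, so no fold changes are given. A positive score is taken as higher in the clone; this direction is likely, not certain, and its basis is that the clone is labelled Test and control Reference. Across features, Pearson's r between the arrays of a day was 0.16 to 0.21, and between arrays of different days -0.08 to 0.12. The arrays of a day compared the same cells with exchanged dyes and counted as 1 replicate, so n = 3 days, and nothing in the labels says that the days were separate cultures. No intensities were analysed here, which leaves the signal over background unknown, and the number of arrays limits how precise a value can be. MYOD1 itself scored 0.41 and -0.36 on day 1, 1.11 and -1.03 on day 3, and 0.50 and 0.26 on day 6, which does not check the silencing, since the construct is itself made of MyoD sequence. Of 16 muscle markers, 12 were matched by symbol. Their median mean score was -0.02, and their day medians were -0.39, -0.05 and 0.33 on days 1, 3 and 6. MYLPF was not among the 12, because its probe carries the newer symbol MYL11. Of the smooth muscle, fat, fibroblast and bone markers 2, 2, 1 and 0 were matched. The muscle myosin MYH7, named here after its values were seen, stood at -4.24 and -3.08 on day 3, the day on which MT2A was highest. It was the extreme of the 12, as the other matched muscle markers had day 3 means from -0.46 (TNNT3) to 1.06 (TNNC1). A link between MYH7 and the MT2A value was not tested. Scores are relative, so they do not show which of these markers the cells expressed.

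The promoters of mouse Mt2 and Atox1, the mouse counterparts of the human probes with the highest and lowest day scores among these genes, are shown because the regulators named above act through short motifs. Each line gives the 250 bases before the RefSeq start (GRCm38.p6), 5′ to 3′ on the gene's strand. Capitals mark matches on either strand to the metal response element core (TGCACNC or TGCGCNC), the antioxidant response element core (TGACNNNGC) or the E-box (CANNTG).
Mt2, chr8:94172368-94172617, plus strand: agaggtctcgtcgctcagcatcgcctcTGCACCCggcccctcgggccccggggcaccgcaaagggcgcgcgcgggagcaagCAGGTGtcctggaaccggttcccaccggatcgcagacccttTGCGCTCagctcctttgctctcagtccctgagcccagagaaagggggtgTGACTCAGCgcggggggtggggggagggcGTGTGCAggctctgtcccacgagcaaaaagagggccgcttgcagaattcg
Atox1, chr11:55461209-55461458, minus strand: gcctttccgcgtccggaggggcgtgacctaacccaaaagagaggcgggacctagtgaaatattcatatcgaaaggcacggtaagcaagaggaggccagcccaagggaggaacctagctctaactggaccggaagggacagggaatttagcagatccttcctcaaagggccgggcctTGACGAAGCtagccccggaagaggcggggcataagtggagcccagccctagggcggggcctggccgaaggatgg

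The Mt2 window held 3 metal response cores, at positions -223 to -217, -128 to -122 and -50 to -44 from the start, 1 antioxidant core and 1 E-box, none of them overlapping. The Atox1 window held 1 antioxidant core, and neither of the other motifs. Of 32851 promoter windows of this length, 21.4% held a metal response core, 10.2% an antioxidant core and 66.2% an E-box. These matches describe letters and show no binding.

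MT2A (Entrez Gene 4502) was the metallothionein with the widest swing. Its centred scores were 0.21 on array A and 0.76 on array B of day 1, 3.00 and 2.64 on day 3, and -3.22 and -0.06 on day 6. The clone thus scored a little above control on day 1, well above it on both day 3 arrays, and clearly below it on array A of day 6 but level with it on array B. In bulk RNA, fewer cells of a type and less RNA per cell cannot be told apart. The day means were 0.48, 2.82 and -1.64. On day 3 MT2A ranked 9 from the highest of 2466 features, and it was the 1 member at least 2 units higher on both arrays, a level that 0.446% of features reached in that direction. A single day could not be tested across cultures, because each day had 1 pair of RNAs. In limma's fit of the 6 arrays, which takes its error from dye-swapped pairs alone, the day 3 value had an adjusted p of 0.164, and 0 of the 5 members passed, against 0.324% of features. With the median of 10 neighbouring probes subtracted it passed there (2.89, limma's adjusted p = 0.0340). Those 10 were every second probe from 2 to 10 places away on either side, so the probes next to MT2A were left out.

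The spots of MT2A parted on day 6 and not on day 3. On day 3 all 4 spots lay between 2.51 and 3.49 as deposited. On day 6 the first and second spots read -1.96 and -4.61 on array A, and 3.65 and -3.73 on array B. Of the 4 day 6 spots 3 were therefore below 0 and 1 was higher than any on day 3. The gap of 7.38 between the spots of array B was exceeded by 18 of 2688 probes, and the median gap on that array was 0.816. First spots stood above second spots on every array, by a median of 0.38 to 0.73, and on array B of day 6 22 probes had a first spot at 2 or more and a second at -2 or less, while 0 had the reverse. Of these 22 probes, 17 lay within 100 probes of MT2A in spot order, MT2A included, in a stretch, chosen after the data were seen, of 201 of the 2688 probes; on both day 3 arrays that stretch held 0 such probes, and on array A of day 6 it held 3 of 38. The 10 neighbouring probes of MT2A had a median of 3.51 on first spots and 0.36 on second spots of array B of day 6. These 10 were every second probe, and probes lying between them were low on first spots. The MT1X probe at spots 353 and 354, which lies among them, read -2.18 on its first spot of that array. Its own 10 neighbouring probes, chosen in the same way, had a median of -1.40 on first spots and -1.10 on second spots. Probes with high and with low first spots thus stood side by side around MT2A. The part of this placement in the MT2A value was not tested beyond the settings given here. With first spots alone MT2A stood at 0.44 on day 6, and with second spots alone at -3.71, while its day 3 mean was 2.67 and 2.94.

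**Figure D1:**
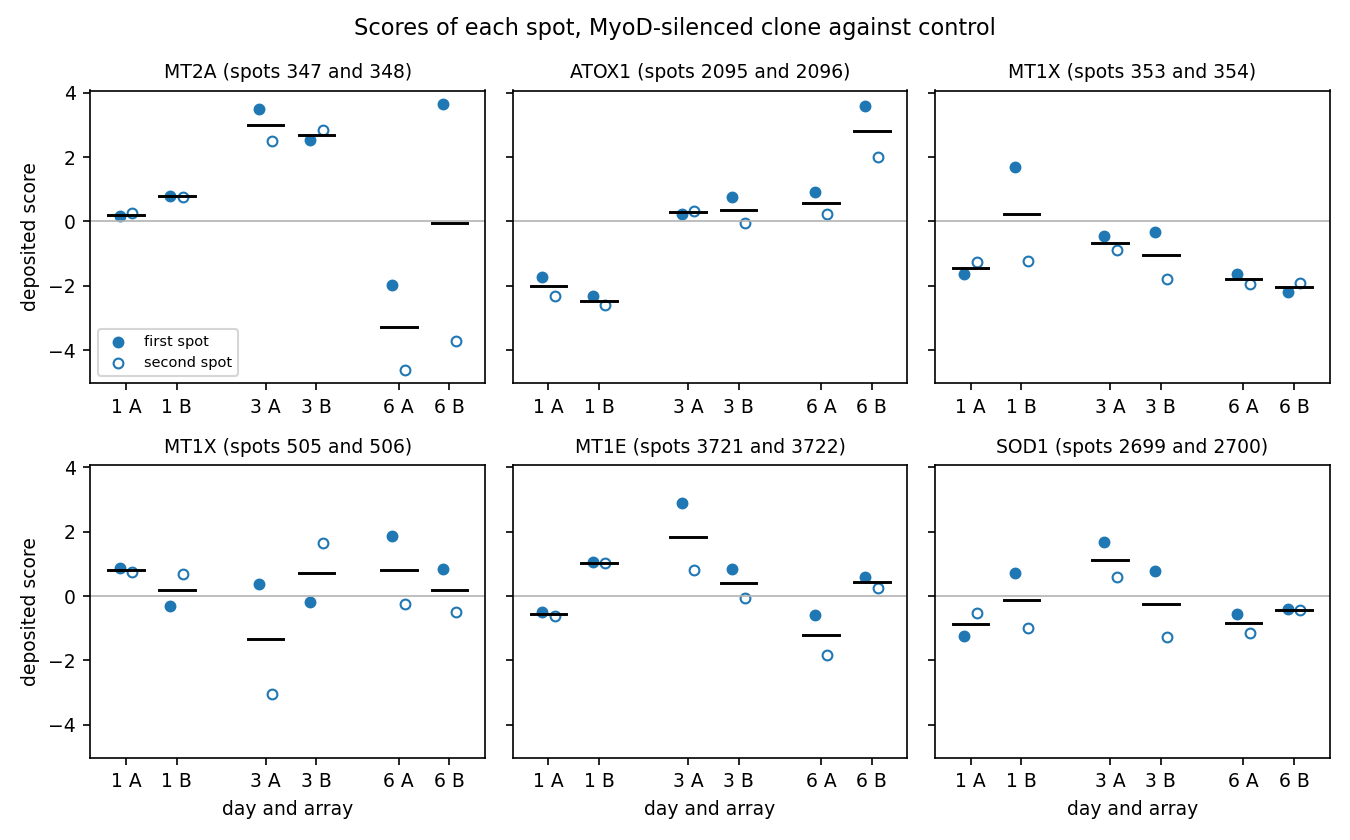
Deposited scores (vertical axis) of both spots of each probe, clone against control, by day and array (horizontal axis); filled points are first spots, open points second spots, and bars their mean. MT2A lies between 2.51 and 3.49 on all day 3 spots, and its spots part by 7.38 on array B of day 6.

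**Figure D2:**
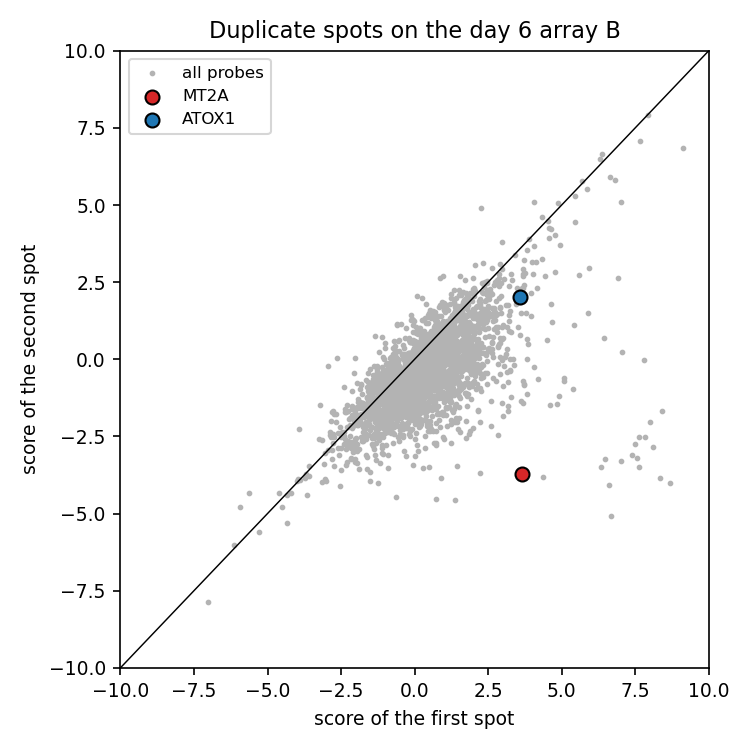
First spot against second spot (deposited scores) for the 2688 probes on array B of day 6, with MT2A and ATOX1 marked and the line of equal scores. ATOX1 is above 0 on both axes, while MT2A reads 3.65 on the first spot and -3.73 on the second.

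Of the other metallothioneins, MT1E (Entrez Gene 4493) also had its highest day mean on day 3. It scored -0.57 and 1.02 on day 1, 1.84 and 0.35 on day 3, and -1.14 and 0.41 on day 6. The arrays of day 1 and of day 6 lay on opposite sides of 0, so only day 3 gave 1 direction on both arrays. Its day 3 first and second spots read 2.88 and 0.81 on array A, and 0.85 and -0.07 on array B, as deposited. With first spots alone the MT1E day 3 mean was 1.53, and with second spots alone 0.63. MT1X (Entrez Gene 4501) had 2 probes, which did not follow each other. With probes kept separate, the probe at spots 353 and 354 scored -1.45 and 0.21, then -0.65 and -1.10, then -1.72 and -2.08 on days 1, 3 and 6. The probe at spots 505 and 506 scored 0.81 and 0.18, -1.33 and 0.68, and 0.87 and 0.14. The first was below 0 on 5 of 6 arrays and the second above 0 on 5 of 6, and their means over the days were -1.13 and 0.23. Averaged, MT1X had day means of -0.06, -0.60 and -0.69. On day 3 MT2A and MT1E thus stood above 0 on both arrays and MT1X below 0 on both, with limma's adjusted p of 0.679 for MT1E and 0.861 for MT1X against array spread.

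ATOX1 (Entrez Gene 475) was low on day 1 and had higher day means on days 3 and 6. Its centred scores were -2.02 and -2.48 on day 1, 0.28 and 0.32 on day 3, and 0.65 and 2.78 on day 6. The clone was below control on both day 1 arrays and above it on the other 4, and both day 1 scores lay below all 4 later ones, as for 7.42% of features. All 4 day 1 spots lay between -2.61 and -1.72, and on day 6 all 4 lay above 0, from 0.238 to 3.58. On day 1 its mean of -2.25 ranked 10 from the lowest of 2466 features. It was the 1 member at least 2 units lower on both arrays, in a direction where 0.284% of features reached that level. The fit against array spread gave an adjusted p of 0.458 in limma, and it called 0 of 5 members on day 1, against 0.243% of features. The day 6 mean of 1.71 rested in part on array B, and was 0.65 without it and 1.08 with neighbouring probes subtracted. From day 3 to day 6 the ATOX1 mean rose by 1.41 (limma's adjusted p = 0.744 against array spread), and by 0.35 without array B of day 6. The day medians of the 12 matched muscle markers, -0.39, -0.05 and 0.33, had the same order over the days as ATOX1. Those of the 2 smooth muscle markers were -1.04, -0.30 and 0.41. Single muscle markers went both ways, as ACTA1 rose in that order (-1.38, -0.31 and 1.70) and DES did not (1.11, 0.03 and 1.57). The 2 fat markers had medians of 0.62, -0.64 and 0.02, and the 1 fibroblast marker, VIM, read 0.73, -1.73 and 0.49. The part of any of these markers in the ATOX1 values was not tested. No member was at least 2 units from 0 in 1 direction on both day 6 arrays, a level reached by 1.82% of features, and 0 of 5 passed the fit on day 6, against 0.284% of features.

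SOD1 (Entrez Gene 6647), which needs its own copper chaperone rather than ATOX1, stayed near 0. It scored -0.88 and -0.15 on day 1, 1.12 and -0.27 on day 3, and -0.77 and -0.44 on day 6, with means of -0.51, 0.42 and -0.61. No day mean ranked nearer to either end than 581 of 2466 features, and no single array nearer than 384.

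**Figure D3:**
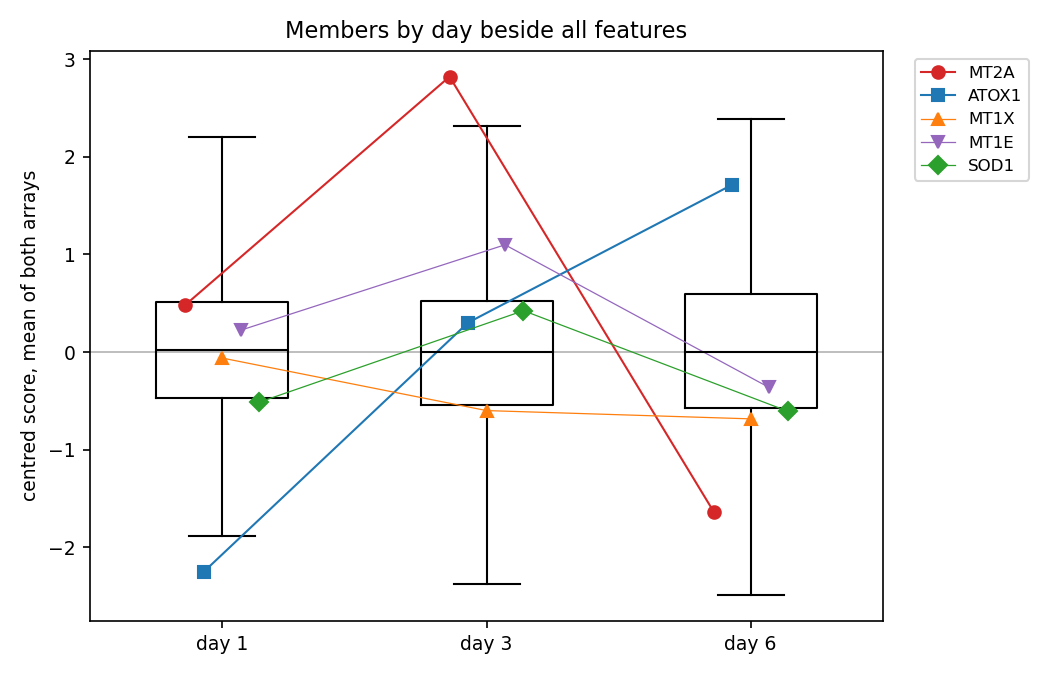
Centred score (vertical axis, mean of both arrays of a day) of the 5 members by day. The boxes give the median and quartiles of all 2466 features, with whiskers from the 1st to the 99th percentile. MT2A on day 3 (2.82) and ATOX1 on day 1 (-2.25) lie outside the whiskers, and every other member value inside them.

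The differences between days were then compared, since MT2A and ATOX1 had their extremes on different days. For ATOX1, all 4 differences between a day 6 and a day 1 array were at least 2 units upward, as for 0.608% of features, and so were all 4 between day 3 and day 1, as for 0.689%. The day 6 mean was 3.96 above that of day 1, rank 7 from the highest, with limma's adjusted p = 0.159 against array spread. The difference was 5.03 without array A of day 6 and 2.90 without array B of day 6, but day 6 is then 1 array. With neighbouring probes subtracted it was 2.93 (limma's adjusted p = 0.266). For MT2A, all 4 differences between a day 6 and a day 3 array were at least 2 units downward, as for 1.01% of features. The mean difference of -4.46 ranked 4 from the lowest (limma's adjusted p = 0.132). It passed with a robust prior (limma's adjusted p = 0.0490) and with neighbouring probes subtracted (-5.33, limma's adjusted p = 0.0110). It was -2.24 with first spots alone. Without array A of day 6 it was -2.88 and without array B of day 6 -6.04, again with 1 array for day 6. None of the 5 members passed for any pair of days, against 0.162% of features for day 3 minus day 1, 0.365% for day 6 minus day 1 and 0.0406% for day 6 minus day 3.

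Opposite signs on both arrays of 2 days were common among features. ATOX1 had them between day 1 and day 3, as did 14.2% of features, and ATOX1 and MT2A between day 1 and day 6, as did 15.6%. MT2A had them between day 3 and day 6, as did 13.5%. For MT2A both rest on a score of only -0.06 on array B of day 6, and with first spots alone its day 6 mean was 0.44. With so many features showing a sign change, the signs do not set these genes apart. Some of the sizes above ranked near an end of the features, but no member passed in the main fit. The members were also chosen with earlier results of these data known.

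Over the 3 days together, no member differed from control in limma's test on the day means, with 0 of 5 passing against 0.365% of 2466 features, and 0 of 5 at an unadjusted p under 0.05 against 6.65%. MT2A averaged 0.56 ± 2.23 (SD, n = 3 days; limma's adjusted p = 0.982), with an interval at 95% of -0.73 to 1.84. ATOX1 averaged -0.08 ± 2.01 (SD, n = 3 days; limma's adjusted p = 0.990), with an interval of -1.30 to 1.15. These means average days of opposite sign: MT2A was -0.58 without day 3, 1.65 without day 6 and 0.03 without array B of day 6, and ATOX1 was 1.01 without day 1 and -0.97 without day 6. The intervals of MT2A and ATOX1 rest on limma's standard errors of 0.61 and 0.58, which take part of their variance from all features. They are therefore narrower than the printed SDs over 3 days would give alone. MT1E averaged 0.32 ± 0.74, SOD1 -0.23 ± 0.57 and MT1X -0.45 ± 0.34 (SD, n = 3 days each), with limma's adjusted p of 0.954 to 0.983. Leaving out any 1 of the 6 arrays moved the MT1E mean by over 1.5 times, to between 0.054 (without array B of day 1) and 0.59 (without array A of day 1). The SOD1 mean lay between -0.46 (without array A of day 3) and 0.00061 (without array B of day 3). No member had the same sign on 6 of 6 arrays, which 5.52% of features had.

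Few other genes of metal handling had probes, and none passed. Of 42 listed copper and zinc genes 6 were measured, with 0 higher and 0 lower in limma's test, 0 at an unadjusted p under 0.05 and a median mean score of -0.05, against 0.00 for all features. The highest was the zinc transporter SLC39A13 (0.72), at 0.95 and 1.42 on day 1, 1.30 and 1.98 on day 3, and -0.97 and -0.38 on day 6. It was above control on both arrays of days 1 and 3 and below it on both of day 6. The lowest was SCO2 (-0.47), which delivers copper to cytochrome c oxidase, with 3 arrays on either side of 0. Its mean was -0.16 without array B of day 6 and -0.77 without array A of day 6.

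Of 38 iron and haem genes 6 were measured, again with 0 higher and 0 lower, 0 at an unadjusted p under 0.05, and a median of 0.12. NCOA4, the receptor that sends ferritin to autophagy, was highest at 0.51. On day 3 it scored 4.58 on array A and -0.27 on array B, and leaving out array A gave a mean of -0.29. Myoglobin (MB), the haem protein that stores oxygen in muscle, was lowest at -0.45. It scored 0.85 and -0.67 on day 1, 0.76 and 1.60 on day 3, and -4.01 and -1.22 on day 6, so both day 6 arrays were below all 4 earlier ones, as for 8.96% of features, MT2A among them. Its mean was 0.64 without day 6.

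Of 53 antioxidant genes 22 were measured, with 0 higher and 0 lower in limma's test, 2 at an unadjusted p under 0.05 and a median of -0.16. Those 2, GPX1 and TXNIP, were also the 2 with the same sign on 6 of 6 arrays. Counts of 2 of 22 are close to what all features gave, 6.65% at that p and 5.52% with 1 sign. GPX1, the selenium enzyme that reduces hydrogen peroxide with glutathione, scored -0.46 and -1.97 on day 1, -1.23 and -2.09 on day 3, and -0.89 and -0.71 on day 6 (mean -1.22 ± 0.43, SD, n = 3 days, limma's adjusted p = 0.448). TXNIP, which binds and inhibits thioredoxin, scored 1.25 and 0.41, 1.26 and 0.96, and 0.56 and 4.40 on days 1, 3 and 6 (mean 1.47 ± 0.89, SD, n = 3 days, limma's adjusted p = 0.274), and its mean was 0.83 without array B of day 6. PRDX6, a peroxidase with a single active cysteine, stood at 0.61 and -0.63 on day 1, 0.65 and -1.69 on day 3, and -2.59 and -2.54 on day 6. It was the 1 gene of these lists, besides MT2A and ATOX1, to lie 2 units from 0 on both arrays of a day. Of all features, 0.527% reached that level upward and 0.284% downward on day 1, and 0.446% and 0.811% on day 3. On day 6 it was 1.82% in either direction.

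**Figure D4:**
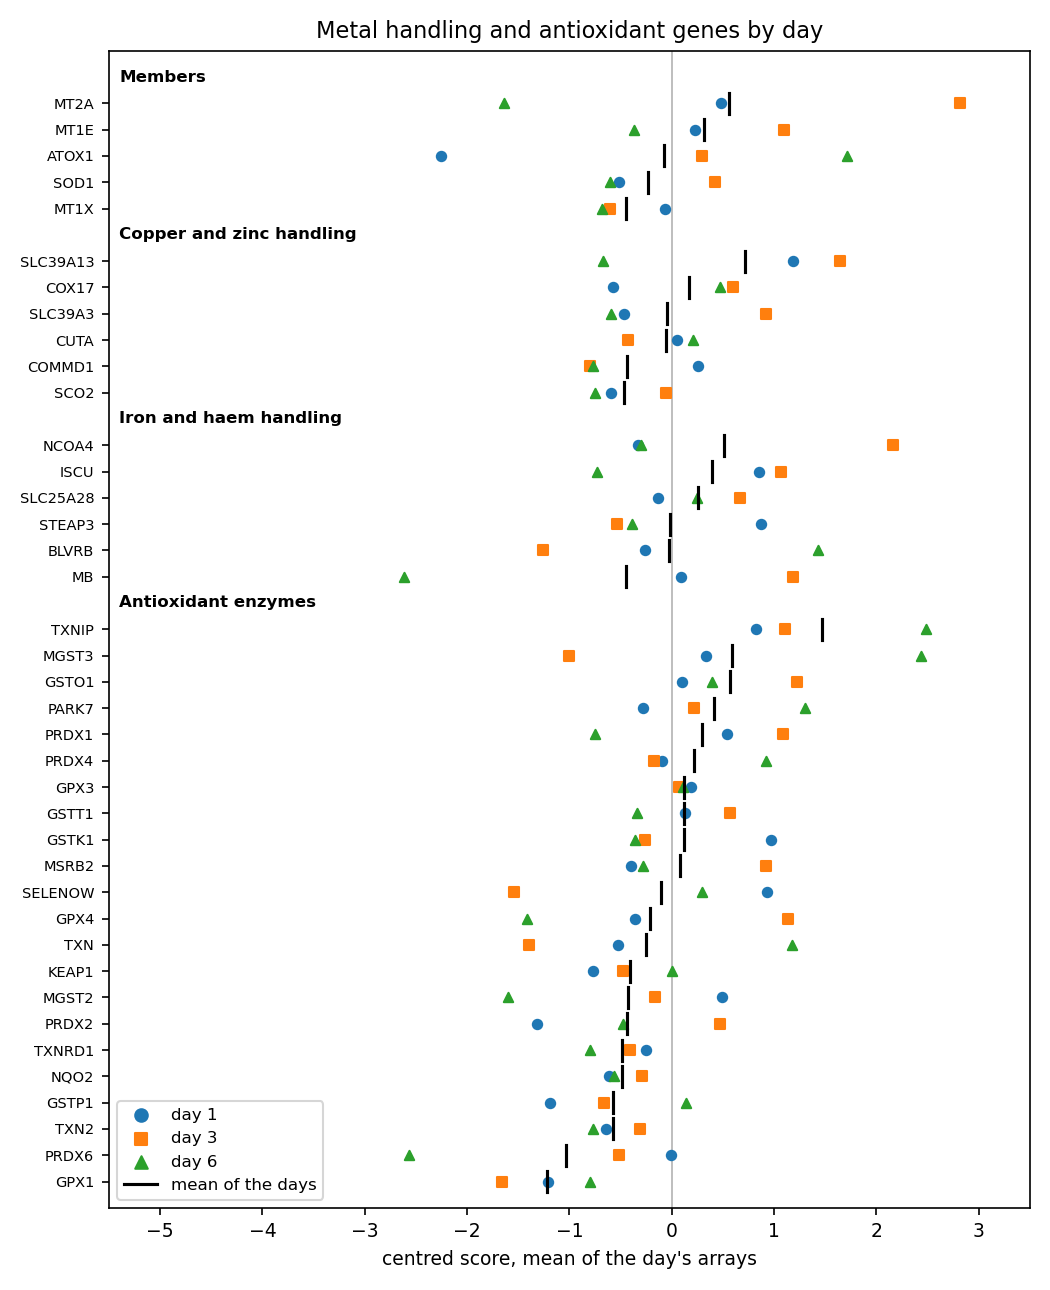
Centred score (horizontal axis) of each measured gene of the members and of the copper and zinc, iron and haem, and antioxidant lists, on days 1 (circles), 3 (squares) and 6 (triangles), with bars at the mean of the days. The day values of MT2A and ATOX1 spread over both sides of 0, while those of GPX1 all lie below it and those of TXNIP all above it.

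The genes whose scores lay nearest to those of MT2A and ATOX1 were found by the root mean square difference over the 6 arrays among 1520 other named genes. For MT2A these were COX6C, a subunit of cytochrome c oxidase (1.01 units), the mitochondrial fission factor MFF (1.15) and SPAG7 (1.17), against a median of 2.34. COX6C stood at 0.83 and -0.56 on day 1, 1.12 and 2.56 on day 3, and -3.67 and 0.49 on day 6. With spots averaged, COX6C was like MT2A low on array A of day 6 and not on array B. For MT2A that array B score averages spots at 3.65 and -3.73 as deposited, so its second spot was low there too. For ATOX1 the nearest genes were the fast troponin TNNI2 (0.618 units), the muscle phosphofructokinase PFKM (0.873) and the HSP70-binding protein HSPBP1 (0.901), against a median of 2.02. TNNI2 stood at -2.13 and -1.47 on day 1, -0.35 and 0.58 on day 3, and 1.12 and 2.02 on day 6. All 3 nearest genes of ATOX1 were below 0 on both arrays of day 1 and above 0 on both of day 6. These genes were picked on the same scores, so shared signs follow in part from the choice. Nearness over 6 arrays is a description, and arrays of a day share their RNA.

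**Figure D5:**
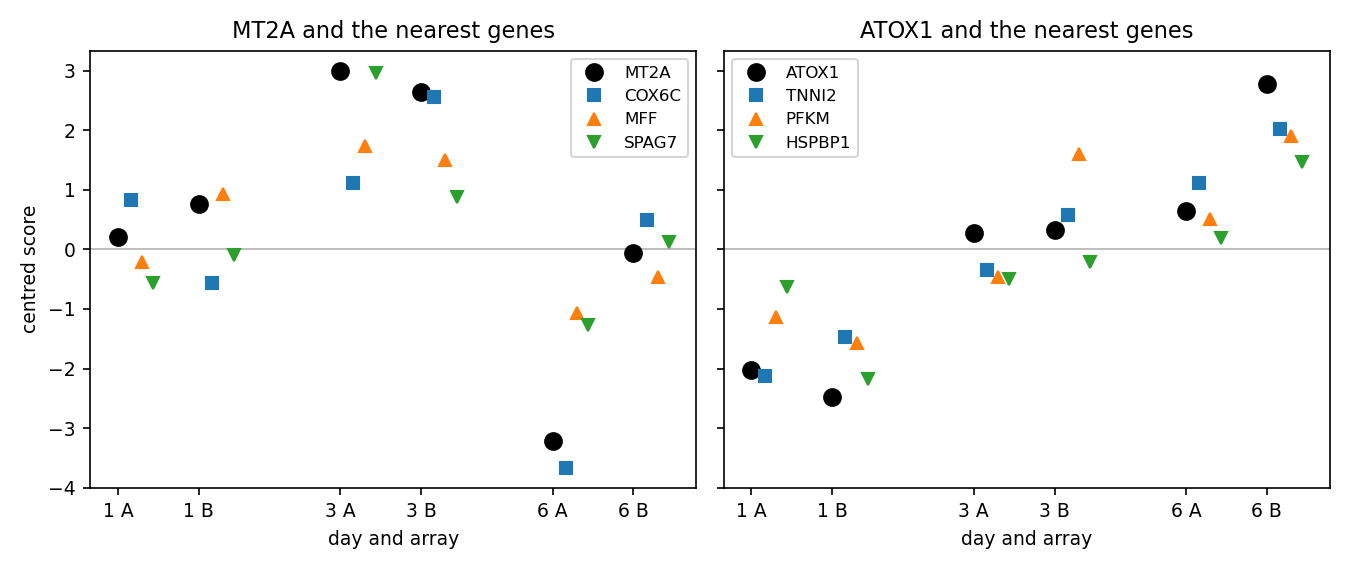
Centred scores (vertical axis) of MT2A (left) and ATOX1 (right), with the 3 nearest named genes of each, by day and array (horizontal axis). The genes near ATOX1 are below 0 on both day 1 arrays and above 0 on both day 6 arrays, and those near MT2A are above 0 on both day 3 arrays. The genes were picked on these same scores, so shared signs follow in part from the choice.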

How the data were processed

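The authors deposited 1 table of scores with 5376 spots and 6 arrays. Per the labels, RNA was purified with Trizol, labelled by tyramide signal amplification (TSA) and hybridised to a human muscle array. The sources used here do not state how the authors corrected, normalized or scaled the deposited scores. A largest score of 21.6 exceeds a log2 ratio of a 16-bit scanner, so the log2 ratios the design assumed were not used and the tests ran on scores. The spots numbered odd and next even share a symbol in every named case. They were averaged to 2688 probes, named for 3486 of the spots through the platform annotation (1890 unnamed, 0 with several symbols), then averaged per gene to 2466 features and centred on each array's median (-0.07 to 0.03 before centring, SDs 1.41 to 1.62). No value was missing. Duplicate spots correlated at 0.25 to 0.60.

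limma 3.58.1 in R 4.3.3 tested the 3 day means against 0, two-sided, with Benjamini-Hochberg adjustment over all 2466 features (threshold 0.05). A second limma fit used the 6 arrays with the days as coefficients and contrasts between days. Its error, and so its p-values, covers only the spread between dye-swapped arrays. The array letter, which per the labels is the dye orientation, was tried as a replicate block. Differences of A minus B correlated between days at -0.0377 to -0.0018 across features.

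The members and lists were chosen with earlier results of these data known. Genes named are all measured members, the genes of each list with 1 sign on 6 arrays (otherwise the highest and the lowest), those 2 units from 0 on both arrays of a day, and the 3 nearest to MT2A and to ATOX1. Symbols are those of the annotation, and list genes were matched only under the symbols listed. Promoter letters come from RefSeq (GRCm38.p6), where 4 of 4 mouse genes looked up had a window. Other settings tried were separate arrays, values as deposited, scaled arrays, separate probes, a robust prior (statmod 1.5.0), named genes only, neighbouring probes subtracted, other thresholds, each array or day left out, and, chosen after seeing the data, either spot of a pair alone. Neighbouring probes were up to 10 probes, at every second place from 2 to 10 places away on either side, without the adjacent probes. Figures used Python 3.11.15 and matplotlib 3.10.9.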

Additional observations from a re-analysis of the deposited data

Results flagged for a closer look

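The values of ATOX1 and MT2A had opposite signs on both arrays of 1 day and both arrays of another. For ATOX1 the difference was 2.55 for day 3 minus day 1 and 3.96 for day 6 minus day 1. For MT2A it was -2.12 for day 6 minus day 1, where array B of day 6 lay at only -0.06, and -4.46 for day 6 minus day 3. These differences were tested against the spread between dye-swapped arrays alone (limma's adjusted p = 0.589, 0.159, 0.619 and 0.132), and between separate cultures they were not tested. Outlying samples were not looked for within a day, which held 2 arrays.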

How the results depend on the processing

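In all, 653 of 701 alternative values kept their direction and their side of the threshold, 24 changed sign and 24 moved otherwise. No member and no gene of the 3 lists passed the shared test under any alternative run, while the number of features passing it, 9, ran from 0 (without array A of day 3, without day 3 or without day 6) to 29 (without day 1); it was 5 with the replicate block, 2 with named genes only, 4 with neighbouring probes subtracted, 16 with first spots and 4 with second spots, and 0 to 8 with 1 array left out. The replicate block (array letter) changed no call of a member: MT2A day 3 stayed at 2.82 with limma's adjusted p of 0.289.

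The day 3 value of MT2A was 2.64 to 3.00 under all alternatives, but no member reached a threshold of 3 units on both arrays of day 3 or day 1 (0 in each). MT2A passed in limma on day 3 with neighbouring probes subtracted (2.89), and for day 6 minus day 3 in that setting (-5.33) and with a robust prior (-4.46); with 1 array left out that difference was -6.04 to -2.88. With first spots it stood at 0.44 on day 6 and at 0.30 for day 6 minus day 1. The day 1 value of ATOX1 was -2.48 to -1.86 under all alternatives, and the count of members at least 2 units lower on day 1 was 0 with neighbouring probes subtracted or with first spots. Its day 6 minus day 1 difference was 2.90 to 5.03 with 1 array left out and 2.93 with neighbouring probes subtracted. A day left with 1 array is assumed to vary like the others. On single arrays of day 6, 0 to 1 member was 2 units higher and 0 to 1 lower, and with second spots 1 was lower.

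Means that changed sign were ATOX1 without day 1 (1.01; -0.43 to 0.28 with 1 array left out), MT2A without day 3 (-0.58), MT1E with neighbouring probes subtracted (-0.078) or without day 3 (-0.069), the MT1X probe at spots 505 and 506 alone (0.23), NCOA4 without day 3 (-0.31; -0.29 to 1.32 with 1 array left out), and MB without day 6 (0.64; -0.91 to 0.020 with 1 array left out) or with first spots (0.40). With 1 array left out SOD1 was -0.46 to 0.00061 and MYOD1 -0.21 to 0.50. Day values did so for MT1X on day 1 (0.48 with neighbours subtracted, 0.022 with second spots, -0.32 to 0.19 with 1 array left out), MT1E on day 1 (-0.062 with first spots, -0.57 to 1.02) and day 6 (-1.14 to 0.41), and SOD1 on day 1 (0.085 with neighbours subtracted) and day 3 (-0.080 with second spots, -0.27 to 1.12). The causes were not tested. Without intensities, how signal over background limits these values is unknown.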
